A study of Mus musculus with 22 samples.

Results

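The genes described here encode the B cell receptor's signalling subunits and the proteins that act directly on them. They were Cd79a and Cd79b, the inhibitory coreceptors Cd22 and Cd72, and the Src family kinases Blk and Lyn. The others were the kinases Syk and Btk and the adaptor Blnk. These genes and the lists of other genes below were chosen by name, with earlier results of these data known. The shares of all genes given beside their counts are therefore a description and not a test. Of these 9 genes, 8 were measured, through 11 of the 22690 probe sets of the array, and all 8 were among the 6437 genes tested. Lyn was not analysed here, because no probe set carried its symbol in the probe table used. The arrays compared B lineage cells of C57Bl/6 mice at 3 stages. Wild type mice gave 4 arrays, whose titles call the cells B220+. Eμ-Myc transgenic mice gave 5 arrays of premalignant B lymphocytes and 13 arrays of malignant B lymphocytes (lymphomas). In the Eμ-Myc transgene, Myc is driven by the immunoglobulin heavy chain enhancer, so that the oncogene is expressed in B lineage cells. Littermates aged 4 to 6 weeks gave the wild type and the premalignant cells. The lymphomas came from 13 independent mice, whose labels carry the same age. Cells were taken from marrow or spleen with magnetic beads against B220 or IgM, and the labels name neither the tissue nor the bead of each array. They also do not say whether the wild type and premalignant arrays were from separate mice, so the p-values below measure only the spread between these arrays.

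The B cell receptor is a membrane immunoglobulin held together with the Cd79a and Cd79b heterodimer, whose cytoplasmic tails carry the tyrosine motifs that start the signal. Src family kinases such as Blk and Lyn phosphorylate these motifs, Syk binds them, and Syk then phosphorylates the adaptor Blnk, which brings Btk to phospholipase C gamma and so to calcium release. Cd22 and Cd72 recruit the phosphatase Ptpn6 (SHP-1) and dampen the signal, and a pre-B cell uses the same machinery under its surrogate light chain receptor.

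Promoters are shown because most of these genes moved together, and they were searched for motifs of factors known from B cell biology (EBF, E2A, octamer factors and PU.1) and of Myc. Sequences were taken from RefSeq (build GRCm38.p6), which gave 7 windows of 250 bases before a transcript start for 6 of the 8 genes (Cd79a, Cd22, Cd72, Syk with 2 starts, Btk and Blnk). The 3 printed below are those of a signalling subunit, a coreceptor and the adaptor. They are written 5′ to 3′ on the strand of the gene, ending at the base before the start, with the matches in capitals: Cd79a at chr7:24897247-24897496 on the plus strand, Cd22 at chr7:30879029-30879278 on the minus strand and Blnk at chr19:40994222-40994471 on the minus strand.
Cd79a: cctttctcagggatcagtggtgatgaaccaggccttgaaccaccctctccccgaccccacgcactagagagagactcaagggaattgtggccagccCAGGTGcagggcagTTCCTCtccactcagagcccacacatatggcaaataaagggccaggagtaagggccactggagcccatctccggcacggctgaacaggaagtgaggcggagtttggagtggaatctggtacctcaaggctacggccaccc
Cd22: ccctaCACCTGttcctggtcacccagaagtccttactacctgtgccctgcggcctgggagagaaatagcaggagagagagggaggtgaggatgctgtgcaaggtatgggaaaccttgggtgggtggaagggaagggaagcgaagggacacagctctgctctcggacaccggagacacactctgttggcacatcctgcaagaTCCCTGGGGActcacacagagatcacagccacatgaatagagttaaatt
Blnk: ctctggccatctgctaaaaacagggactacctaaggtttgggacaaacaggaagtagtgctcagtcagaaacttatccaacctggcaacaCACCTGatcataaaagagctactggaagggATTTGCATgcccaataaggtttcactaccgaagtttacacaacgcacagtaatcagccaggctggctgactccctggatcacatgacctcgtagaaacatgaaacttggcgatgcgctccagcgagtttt

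The motifs, chosen after the sequences were seen, were searched on both strands, and none of them contains another. The EBF motif (TCCC, any 2 bases, then GGGA) was present in 1 of the 7 windows, that of Cd22, starting 49 bases before the transcript start, and in 0.779% of all 32851 RefSeq windows of this length. ATTTGCAT, the octamer, was found only in the Blnk window, 130 bases before the start, and in 1.6% of all windows. CAGGTG, an E-box bound by E2A, was present in 5 of the 7 windows (Cd79a, Cd22, Blnk and both of Syk) and in 17.2% of all windows, and GAGGAA, the PU.1 core, in 3 of the 7 (Cd79a, Cd72 and 1 of Syk) and in 23.3%. CACGTG, the E-box of Myc and Max, was in 0 of the 7 windows and in 6.02% of all windows. These matches describe the letters in a window and are not measured binding sites. Only these exact letters were counted, so a window without a match may still hold a variant of a site.

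As a check of the labels, Myc, the transgene, stood at a log2 intensity of 7.04 ± 0.27 (SD, n = 4) in wild type, 9.97 ± 0.258 (SD, n = 5) in premalignant and 9.59 ± 0.593 (SD, n = 13) in lymphoma arrays, which was 7.59-fold and 5.83-fold above wild type (limma, adjusted p = 1.4e-05 and 5.9e-07). All levels below are log2 of the deposited GCRMA intensity, and a change was called where limma's p, adjusted by Benjamini-Hochberg over the 6437 genes, was under 0.05. The B lineage markers Ms4a1, Cd74, Ighm, Ebf1 and Ptprc were above the detection level of 4 in every array. Pax5 was below that level in every array, wild type included (2.94 to 3.94), so its expression cannot be compared here. Of the 5 genes above it, 4 were lower in lymphomas than in premalignant cells, Ms4a1 by 13.7-fold, Cd74 by 6.15-fold, Ptprc by 3.61-fold and Ighm by 2.57-fold (limma, adjusted p = 0.001, 0.027, 1.1e-06 and 0.002), while Ebf1 differed by 0.32 (adjusted p = 0.374). Wild type replicate 2 (mean correlation with its group 0.956) and premalignant replicate 1 (0.938) agreed least with their groups. The 3′ minus 5′ difference of the Actb control probe sets, a measure of RNA integrity, was 0.765 ± 0.0954 (SD, n = 4), 0.704 ± 0.0853 (SD, n = 5) and 1.93 ± 0.374 (SD, n = 13) in wild type, premalignant and lymphoma arrays. The lowest lymphoma, at 1.29, lay above every other array, and the part of this difference in the lymphoma results below was not tested.

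In premalignant cells, 5 of the 8 genes were lower than in wild type cells by limma: Cd22 (2.09-fold), Cd72 (2.06-fold), Blk (1.61-fold), Cd79b (1.46-fold) and Blnk (1.35-fold). In bulk samples such as these, fewer B cells and less RNA per B cell cannot be told apart. None was higher, at an adjusted or an unadjusted p, since all 8 changes were below 0. Across all genes tested, 14.1% were called lower and 12.7% higher. The arrays of the 2 groups did not overlap for 6 of the 8 genes, against 13.0% of all genes in this direction, and the median change of the 8 was -0.52 against -0.05 over all genes. The count of 5 depended on the setting. It was 8 without premalignant replicate 1, 1 (Cd22) in a fit over all 3 groups and 0 with arrays centred on the spike controls. Centring on the spikes moved the median of all genes from -0.05 to 0.20 and the calls from 818 higher and 907 lower to 455 higher and 105 lower. That centring adds the same amount to every gene's change, so the difference between these 8 genes and the median gene was unaffected by it.

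From premalignant cells to lymphomas, 6 of the 8 genes were lower by limma and none was higher, again with all 8 changes below 0: Blk (5.57-fold), Cd79b (2.90-fold), Syk (2.82-fold), Cd79a (2.04-fold), Blnk (2.00-fold) and Cd22 (1.88-fold). Over all genes, 17.3% were called lower and 24.8% higher. For 4 of the 8 (Cd79a, Cd79b, Syk and Blnk) every lymphoma lay below every premalignant array, against 5.93% of all genes. The median change was -1.01 over the 8 genes and 0.09 over all genes. Against wild type, all 8 were lower in lymphomas, where 29.7% of all genes were called lower and 31.8% higher, and 6 of the 8 did not overlap, against 15.5% of all genes. The median change was -1.94 against 0.04 over all genes. The 3 comparisons share arrays in pairs and are not independent of each other.

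**Figure D1:**
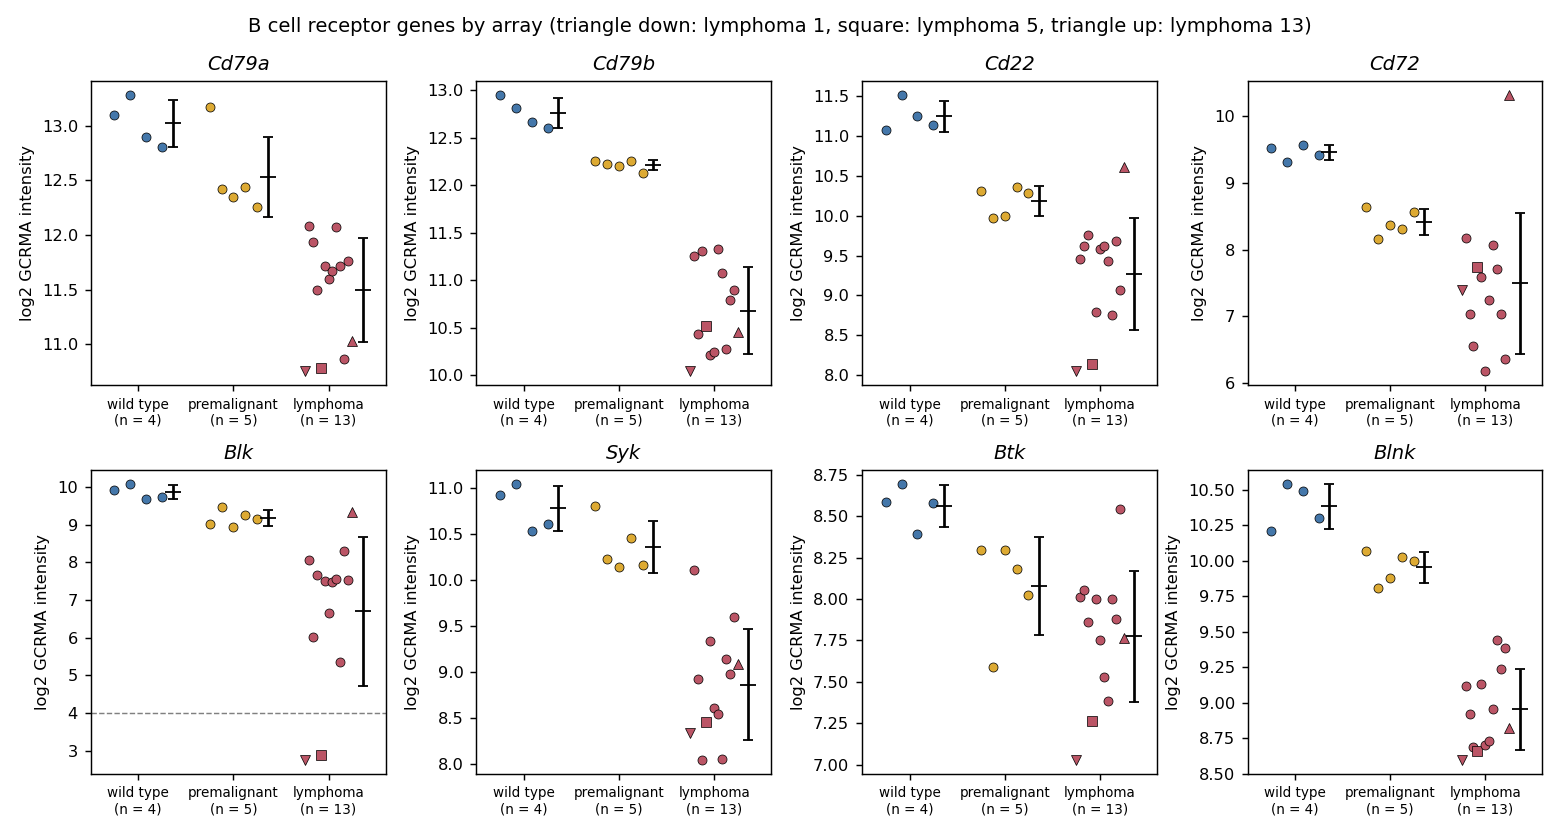
Log2 GCRMA intensity of the 8 genes (vertical axes, with a range of its own for each gene) by stage, 1 point for each array, with the mean and SD beside the points. Every lymphoma lies below every premalignant array for Cd79a, Cd79b, Syk and Blnk. For Blk, lymphomas 1 and 5 lie below the dashed detection level of 4, and for Cd72, lymphoma 13 lies above all wild type arrays.

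**Figure D2:**
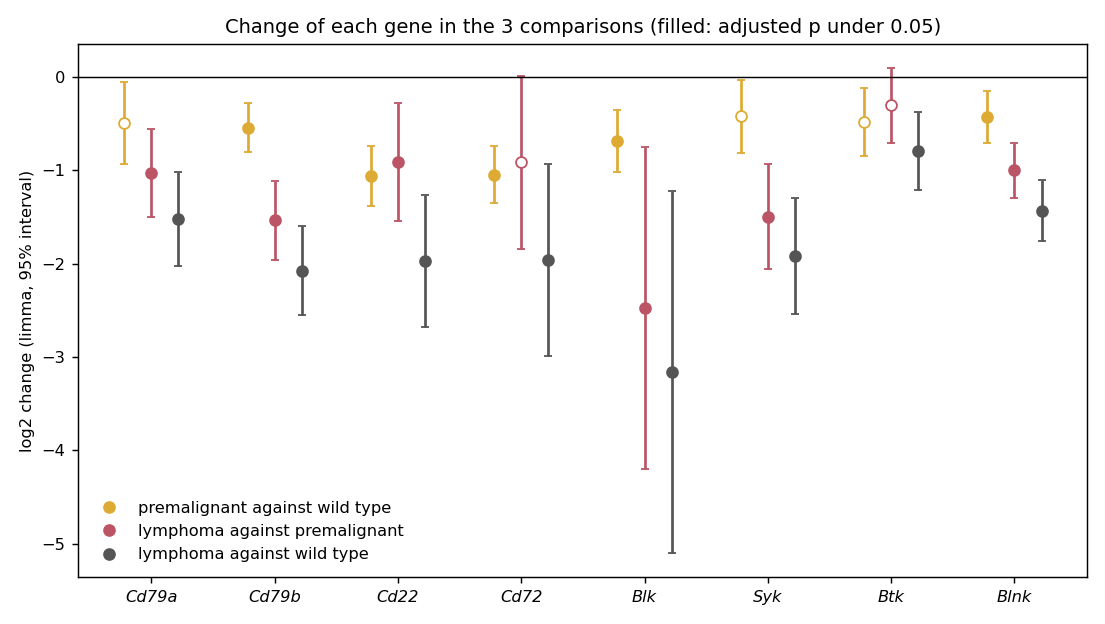
Log2 change (limma, with its 95% interval) of each gene in the 3 comparisons, where filled points passed an adjusted p of 0.05 and open points did not. All 24 changes are below 0, and the interval is widest for Blk in the comparisons with lymphomas.

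The receptor's signalling subunits were at high intensity at every stage. Cd79a (Igα) measured 13.10, 13.28, 12.89 and 12.81 in wild type replicates 1 to 4, and 13.17, 12.43, 12.34, 12.44 and 12.26 in premalignant replicates 1 to 5. In lymphomas it ranged from 10.75 to 12.08, with a median of 11.67. Premalignant replicate 1 reached the wild type range while the other premalignant arrays lay below it, and all 13 lymphomas lay below both other groups. Between premalignant and wild type cells the change of Cd79a was -0.495 (SE 0.198, adjusted p = 0.090), which did not pass. Without premalignant replicate 1 it was -0.655 (adjusted p = 0.007). In lymphomas Cd79a fell by 1.03 (SE 0.227, adjusted p = 0.001) from premalignant cells and by 1.52 (SE 0.239, adjusted p = 2.4e-05) from wild type.

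Cd79b (Igβ), the partner of Cd79a, measured 12.95, 12.81, 12.67 and 12.60 in wild type and 12.26, 12.22, 12.21, 12.26 and 12.13 in premalignant arrays. In lymphomas it lay between 10.04 and 11.33, with a median of 10.51. The 3 stages formed 3 separate ranges with no overlap, and the 5 premalignant arrays were within 0.13 of each other, an SD of 0.0534 that was smaller than that of all but 1.65% of genes. From wild type to premalignant cells Cd79b fell by 0.54 (SE 0.119, adjusted p = 0.007). A larger fall, of 1.53 (SE 0.201, adjusted p = 9.4e-06), separated lymphomas from premalignant cells, and the fall from wild type to lymphoma was 2.08 (SE 0.227, adjusted p = 3.3e-07).

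Of the inhibitory coreceptors, Cd22 is a sialic acid binding lectin and Cd72 a C-type lectin-like protein. Cd22 measured 11.08, 11.51, 11.25 and 11.13 in wild type and 10.31, 9.97, 10.00, 10.36 and 10.28 in premalignant arrays, 2 ranges with a gap between them. Its lymphomas ranged from 8.05 (lymphoma 1) to 10.61 (lymphoma 13), with a median of 9.46. Lymphoma 13 was the only lymphoma above the lowest premalignant array, and no lymphoma reached the wild type arrays. The fall was 1.06 (SE 0.145, adjusted p = 6.2e-04) from wild type to premalignant cells, 0.91 (SE 0.301, adjusted p = 0.021) from premalignant cells to lymphomas, and 1.97 (SE 0.336, adjusted p = 5.9e-05) from wild type to lymphomas. Leaving out premalignant replicate 4 gave an adjusted p of 0.052 for the step from premalignant cells to lymphomas.

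Cd72 measured 9.52, 9.32, 9.56 and 9.42 in wild type and 8.64, 8.16, 8.37, 8.31 and 8.57 in premalignant arrays. The lymphomas lay between 6.18 and 10.31, with a median of 7.39. The highest of them, lymphoma 13, lay above all wild type arrays, and the next highest, lymphoma 2, was at 8.17, within the premalignant range. Cd72 fell by 1.04 (SE 0.136, adjusted p = 4.7e-04) from wild type to premalignant cells. Its change from premalignant cells to lymphomas was -0.916 (SE 0.442, 95% interval -1.84 to 0.008, adjusted p = 0.102), which did not pass. Without lymphoma 13 that change was -1.15 (adjusted p = 0.003). Against wild type, lymphomas were lower in Cd72 by 1.96 (SE 0.492, adjusted p = 0.002).

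Blk, a Src family kinase largely restricted to B lineage cells, measured 9.92, 10.10, 9.69 and 9.73 in wild type and 9.03, 9.48, 8.95, 9.25 and 9.16 in premalignant arrays. In lymphomas it ranged from 2.76 to 9.33, with a median of 7.49. Lymphomas 1 (2.76) and 5 (2.88) lay below the detection level of 4, where a value sets only an upper bound. The other 11 lymphomas lay between 5.36 and 9.33, and lymphoma 13, the highest, was the only lymphoma within the premalignant range. Blk fell by 0.69 (SE 0.149, adjusted p = 0.007) from wild type to premalignant cells. It fell by 2.48 (SE 0.826, adjusted p = 0.021) from premalignant cells to lymphomas, and by 1.77 (adjusted p = 0.005) without lymphomas 1 and 5. From wild type to lymphomas the fall was 3.16 (SE 0.923, adjusted p = 0.006), and 2.46 (adjusted p = 5.1e-04) without those 2 arrays.

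Syk, the kinase that binds the phosphorylated receptor tails, measured 10.92, 11.05, 10.53 and 10.61 in wild type and 10.80, 10.23, 10.14, 10.46 and 10.16 in premalignant arrays, with premalignant replicate 1 inside the wild type range. Among lymphomas it ranged from 8.04 to 10.11, with a median of 8.92. The highest lymphoma, lymphoma 2, was 0.03 below the lowest premalignant array, so that the 2 groups were separate by a narrow margin. The change of Syk from wild type to premalignant cells was -0.42 (SE 0.178, adjusted p = 0.106), and without premalignant replicate 1 it was -0.532 (adjusted p = 0.028). Syk fell by 1.49 (SE 0.268, adjusted p = 2.1e-04) from premalignant cells to lymphomas and by 1.92 (SE 0.295, adjusted p = 1.9e-05) from wild type to lymphomas.

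Btk, the Tec family kinase that acts on phospholipase C gamma, had the smallest change of the 8 genes in lymphomas. It measured 8.59, 8.70, 8.39 and 8.58 in wild type, 8.30, 7.59, 8.30, 8.18 and 8.03 in premalignant arrays, and from 7.03 to 8.54 in lymphomas, with a median of 7.86. Premalignant and wild type arrays did not overlap, whereas lymphomas spanned the premalignant range and lymphoma 12 reached the wild type range. The change of Btk was -0.485 (SE 0.166, adjusted p = 0.052) from wild type to premalignant cells, which passed in 6 of 22 alternative settings (adjusted p from 0.038 to 0.812 over the 22), and -0.304 (SE 0.191, 95% interval -0.703 to 0.094, adjusted p = 0.209) from premalignant cells to lymphomas. From wild type to lymphomas it fell by 0.79 (SE 0.2, adjusted p = 0.002). With spike centring this last change was -0.395 (adjusted p = 0.252).

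Blnk (SLP-65), the adaptor that links Syk to Btk and phospholipase C gamma, measured 10.21, 10.55, 10.49 and 10.30 in wild type and 10.07, 9.81, 9.88, 10.02 and 10.00 in premalignant arrays. The lymphomas lay between 8.60 and 9.44, with a median of 8.92. All 3 groups were separate, and the SD of 0.286 among lymphomas was the smallest of the 8 genes. Blnk fell by 0.43 (SE 0.125, adjusted p = 0.028) from wild type to premalignant cells, but this call was lost in 8 of 22 alternative settings, with adjusted p from 0.012 to 0.855. The fall from premalignant cells to lymphomas was 1.00 (SE 0.139, adjusted p = 1.7e-05) and that from wild type to lymphomas was 1.43 (SE 0.157, adjusted p = 3.3e-07). Both were kept in every alternative run.

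Cd22 and Syk were each read by more than 1 probe set, and these gave different sizes of change in lymphomas. The tests above used the probe set with the highest mean, 1419768_at for Cd22 and 1418261_at for Syk. The second Cd22 probe set, 1419769_at, ranged from 9.52 to 10.09 in wild type, from 8.67 to 8.98 in premalignant and from 5.44 to 8.76 in lymphoma arrays. Its fall from premalignant cells to lymphomas was 1.89 (SE 0.395, adjusted p = 8.0e-04 over 10789 probe sets), against 0.91 by the first. From wild type to premalignant cells the 2 Cd22 probe sets fell by 0.95 and 1.06, within 1 SE of each other.

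For Syk, 1418262_at fell by 1.74 (SE 0.214, adjusted p = 4.0e-06) from premalignant cells to lymphomas, which was near the 1.49 of 1418261_at. The probe set 1425797_a_at ranged from 6.89 to 8.19 in wild type, from 7.94 to 8.27 in premalignant and from 3.60 to 5.86 in lymphoma arrays, and fell by 3.21 (SE 0.318, adjusted p = 3.0e-07). Every lymphoma lay below every other array on this probe set, and 3 of the 13 lymphomas were below the detection level. Between premalignant and wild type cells its change was 0.47 (adjusted p = 0.180), opposite in sign to the -0.42 and -0.27 of the others, and none of the 3 passed. Whether these probe sets read different transcripts of Syk was not tested.

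**Figure D3:**
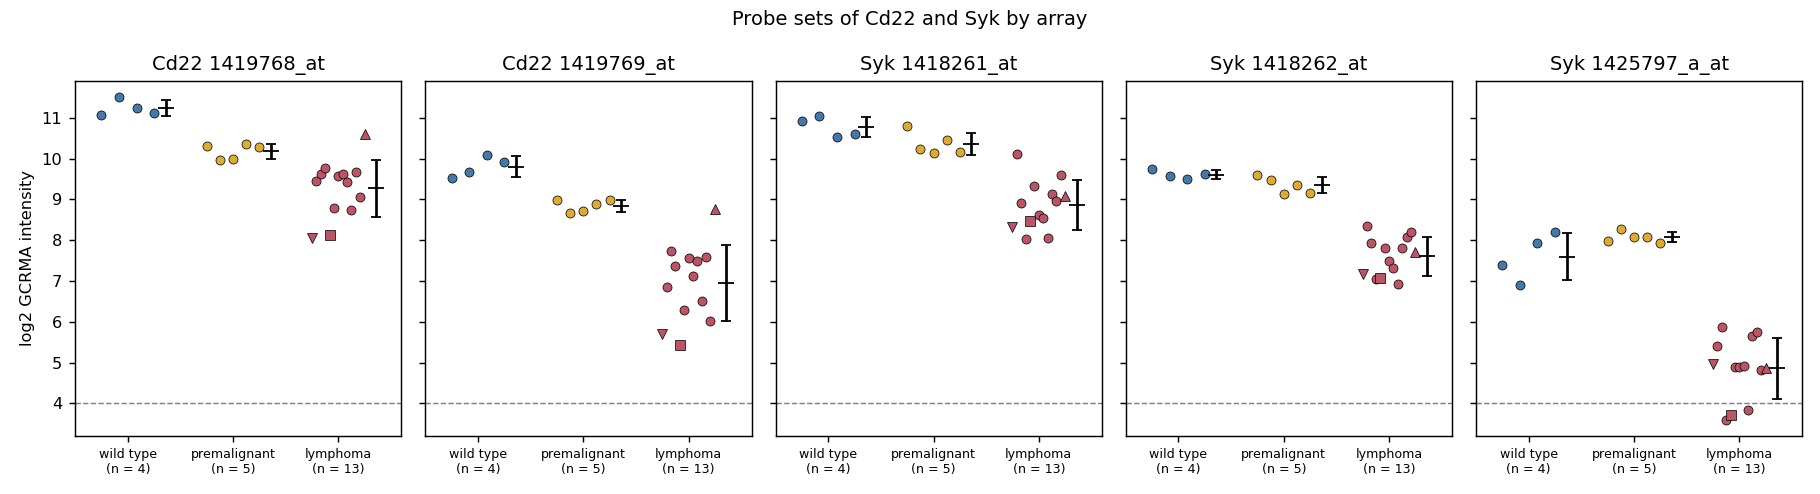
Log2 GCRMA intensity (1 vertical axis for all panels) of the 2 Cd22 and 3 Syk probe sets by stage, 1 point for each array, with the mean and SD, and the detection level of 4 dashed. Probe set 1425797_a_at of Syk drops from 7.94 or more in premalignant arrays to 5.86 or less in lymphomas, while 1419769_at of Cd22 drops further in lymphomas than 1419768_at.

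Ratios within an array show whether 2 genes of like role changed unequally, whatever the scaling of that array. The log2 ratio of Btk to Syk was -2.33, -2.35, -2.14 and -2.03 in wild type and -2.51, -2.63, -1.84, -2.28 and -2.13 in premalignant arrays. In lymphomas it ranged from -2.10 to -0.18, with a median of -1.10. All lymphomas other than lymphoma 2 (-2.10) lay above both other groups. The ratio was higher in lymphomas by 1.19 than in premalignant cells (exact permutation test, two-sided, p = 4.7e-04, adjusted p = 0.004 over 9 tests) and by 1.13 than in wild type (exact permutation p = 0.002, adjusted p = 0.008). Between premalignant and wild type cells it differed by -0.06 (exact permutation p = 0.746, adjusted p = 0.995). With the mean over the probe sets of Syk, the differences were 1.84 (adjusted p = 0.002) between lymphomas and premalignant cells and -0.413 (adjusted p = 0.103) between premalignant and wild type cells.

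The ratio of Cd79b to Cd79a differed by -0.506 between lymphomas and premalignant cells, which did not pass (exact permutation p = 0.057, adjusted p = 0.129), and by -0.555 between lymphomas and wild type (exact permutation p = 0.045, adjusted p = 0.129). The lymphomas ranged from -1.50 to -0.07 and overlapped both other groups. Premalignant replicate 1, at -0.91, stood apart from the other 4 premalignant arrays, which lay between -0.20 and -0.13. Without it the difference between lymphomas and premalignant cells was -0.656 (adjusted p = 0.033). The ratio of Cd72 to Cd22 differed by 0.01 or less from lymphomas to either group on average (exact permutation, adjusted p = 0.995). It spread from -3.40 to -0.29 among lymphomas and only from -2.05 to -1.63 among premalignant arrays. With the mean over the probe sets of Cd22, lymphomas differed by 0.484 from premalignant cells and by 0.445 from wild type (exact permutation, adjusted p = 0.519 and 0.572).

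**Figure D4:**
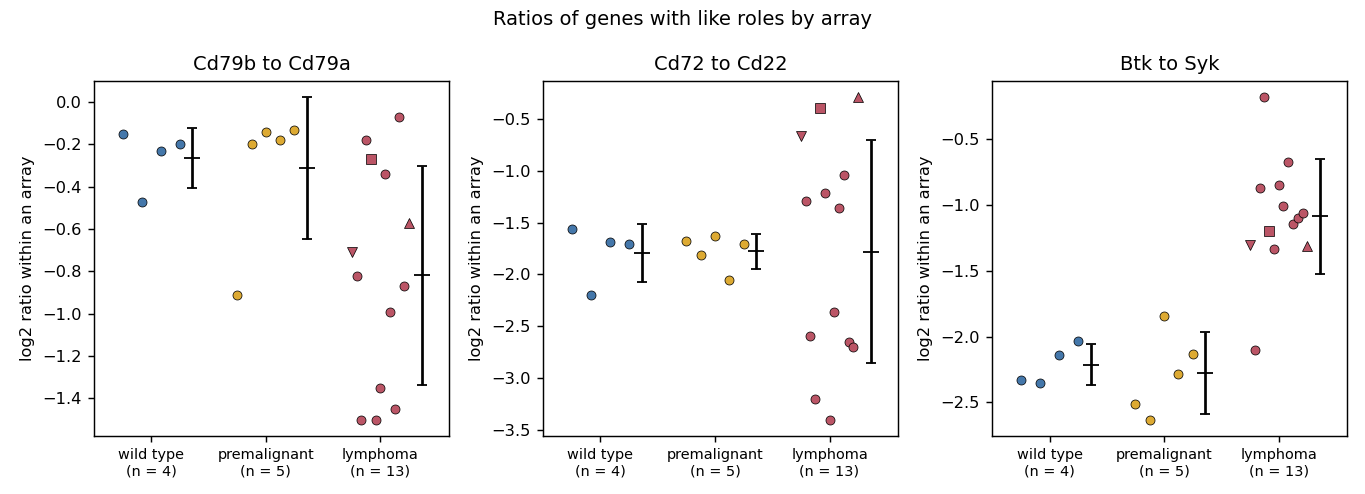
Log2 ratio within an array for 3 pairs of genes (vertical axes) by stage, 1 point for each array, with the mean and SD. For Btk to Syk, 12 of the 13 lymphomas lie above all other arrays. For Cd72 to Cd22, with Cd22 read by 1419768_at, the group means are alike and the lymphomas are widely spread. The height of a ratio depends on the probe sets, so only differences between groups are read.

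Among the 13 lymphomas the genes varied by very different amounts. The SD was 1.99 for Blk, larger than for 99.4% of all genes tested, 1.05 for Cd72 (96.6%), 0.702 for Cd22 (90.3%) and 0.605 for Syk (86.5%). It was 0.479 for Cd79a, 0.457 for Cd79b, 0.395 for Btk and 0.286 for Blnk, against a median of 0.333 over all genes. In wild type arrays, by contrast, the SD of each of the 8 genes was below the median of all genes, 0.255. Without lymphoma 13 the SD was 0.647 for Cd72 (89.2%), 0.628 for Syk and 0.601 for Cd22. The place of Cd22 ahead of Syk thus rested on that array, while Cd72 still came next after Blk. Without lymphoma 13, Blk was still the most variable of the 8 (1.9) and Blnk the least (0.296). Both SDs of Blk include lymphomas 1 and 5, where it was below the detection level. Its SD and its rank were not computed without those 2 arrays.

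Single lymphomas stood low or high for several genes at once. Lymphoma 1 was among the 2 lowest of the 13 for 6 of the 8 genes (Cd79a, Cd79b, Cd22, Blk, Btk and Blnk) and lymphoma 5 for 5 of them (Cd79a, Cd22, Blk, Btk and Blnk), while in Cd72 they ranked 7 and 4 from the top. Lymphoma 13 was the highest in Cd22, Cd72 and Blk, but among the lower lymphomas in Cd79a (11.03). The mean of the B lineage markers, Pax5 included, was lowest in lymphomas 1 (6.43) and 5 (7.42), against a median of 8.67 over all 13. Stromal and endothelial markers had a mean of 6.84 in lymphoma 1, the highest of the 13, 6.42 in lymphoma 5, and 4.74 in lymphoma 13, the lowest. Lymphoma 11 had the next highest mean after lymphoma 1, at 6.70. It ranked 2 from the top in Blk, 3 in Cd22 and Blnk, and 11 in Cd79a. The part of these markers in the low and high values was not tested. Lymphomas 1 and 5 differed in 3 of the 7 pro-B and pre-B cell markers measured. The surrogate light chain genes of pre-B cells were high in lymphoma 1 (Vpreb1 10.62 and Igll1 12.22) and below the detection level in lymphoma 5 (2.32 and 3.67), and Il7r was at 9.15 and 4.82. Rag1, Rag2, Dntt and Kit were below the detection level in both. Ms4a1 (CD20) was at 4.64 and 7.19, and the class II gene H2-Aa at 4.02 and 6.56, in lymphomas 1 and 5.

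**Figure D5:**
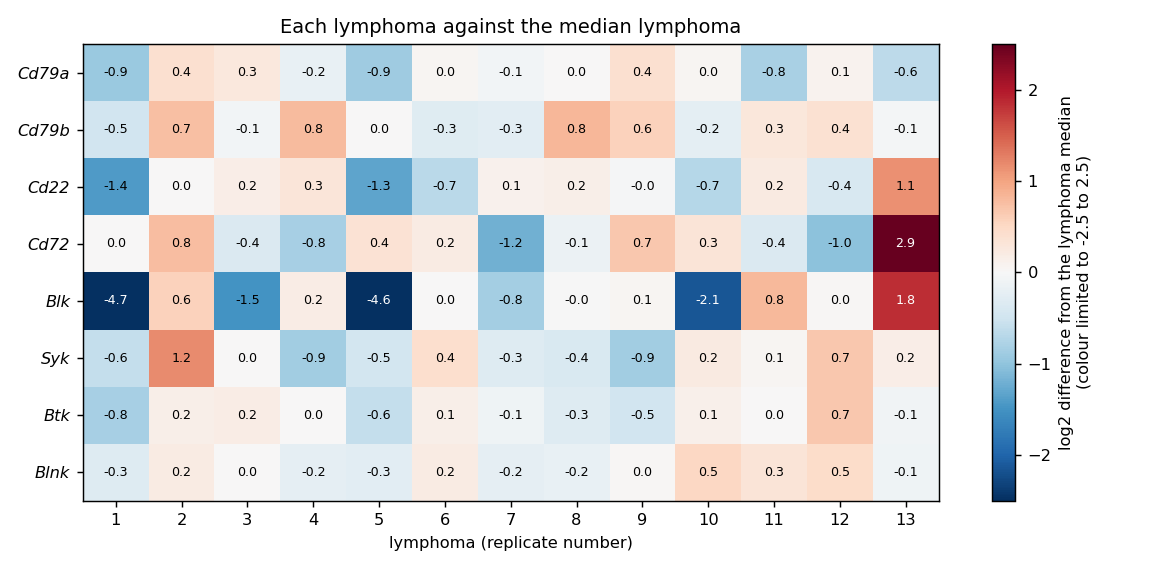
Log2 difference of each lymphoma (columns, by replicate number) from the median lymphoma for each gene (rows), with colour limited to the range from -2.5 to 2.5 and the value written in each cell. Lymphomas 1 and 5 are low in most rows, most of all in Blk, and lymphoma 13 is high in Cd22, Cd72 and Blk.

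Of the 21 pairs of genes other than those of Blk, 16 had a positive Pearson correlation over the 13 lymphomas, with a median r of 0.25. Without lymphomas 1 and 5, 10 of these 21 were positive and the median was -0.03. Over all 28 pairs, those of Blk included, 14 were positive without these 2 lymphomas and the median was 0.01. The highest correlations among pairs other than those of Blk joined the downstream kinases and the adaptor. Btk and Blnk correlated at r = 0.735 (permutation p = 0.003, adjusted p = 0.048 over 28 pairs) and a Spearman coefficient of 0.731 (permutation p = 0.006, adjusted p = 0.055). Without the 2 arrays farthest from the median of Btk, r was 0.571, and without lymphomas 1 and 5 it was 0.622 (adjusted p = 0.228 over 11 lymphomas), which no longer passed.

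Syk correlated with Btk at r = 0.693 and a Spearman coefficient of 0.758 (permutation p = 0.009 and 0.004, adjusted p = 0.079 and 0.055), and r was 0.889 without the 2 arrays farthest from the median of Syk. It correlated with Blnk at r = 0.678 and a Spearman coefficient of 0.736 (permutation p = 0.011 and 0.006, adjusted p = 0.079 and 0.055), and at 0.718 without those 2 arrays. Neither pair passed after adjustment. The receptor subunits Cd79a and Cd79b correlated at r = 0.391 and a Spearman coefficient of 0.302 (permutation p = 0.184 and 0.316, adjusted p = 0.478 and 0.738), with r = 0.186 without lymphomas 1 and 5. No pooled r is given for Blk, whose lymphomas fell into 2 clusters. Over the 11 lymphomas with Blk above the detection level, Cd22 and Blk correlated at r = 0.634 and a Spearman coefficient of 0.536 (permutation p = 0.037 and 0.094, adjusted p = 0.228 and 0.439), and at r = -0.078 without the 2 arrays farthest from the median of Cd22.

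Each gene was also set against 3 measures of the arrays, the Actb 3′ minus 5′ difference, Myc and the mean of the monocyte and macrophage markers. Of these 24 relations 0 passed after adjustment, and 2 had an unadjusted permutation p under 0.05 by either coefficient. Syk against Myc had r = -0.527 and a Spearman coefficient of -0.632 (permutation p = 0.065 and 0.024, adjusted p = 0.656 and 0.292), with r = -0.749 without the 2 arrays farthest from the median of Myc. Cd79b against the monocyte and macrophage markers was the other (r = -0.681, Spearman coefficient -0.676, permutation p = 0.010 and 0.014, adjusted p = 0.232 and 0.292), with r = -0.666 without the 2 arrays farthest from the median of the markers.

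The genes whose levels over the 13 lymphomas were most like those of each member, of 6429 compared, are given as a description. For Cd79a they were Tbc1d10b (r = 0.864), Gnai2 (0.859) and Cers4 (0.855), and for Cd79b they were Hip1r (0.965), Add1 (0.916) and Kri1 (0.916). Cd22 was most like Aftph (0.94), H2-DMb2 (0.888), a class II peptide loading gene, and St6gal1 (0.874), which makes the sialylated glycans that Cd22 binds. Cd72 was most like Ssx2ip (0.863), Akt2 (0.86) and Nup62 (0.858). Syk was most like Capzb (0.897), Lyst (0.861) and Fam193b (0.836), Btk like Arhgef1 (0.927), Myo9b (0.915) and Slc25a45 (0.888), and Blnk like Uroc1 (0.796), Kalrn (0.789) and Bex3 (0.771). For Blk, whose r over all 13 rests on the gap to lymphomas 1 and 5, the 3 genes were Prkcb, St6gal1 and Sh3bp5. St6gal1 was thus named for both Cd22 and Blk. Cd22 was also lowest in lymphomas 1 (8.05) and 5 (8.14), and its r with these genes was not computed without them. Whether Cd22 and St6gal1 are linked was not tested.

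The other genes of the pathway, 79 by role, had 63 with a probe set and 55 tested. In premalignant cells 30 of the 55 were lower and 1 higher than in wild type, with a median change of -0.61, where 14.1% of all genes were lower and their median was -0.05. In lymphomas 24 were lower and 1 higher than in premalignant cells (median -0.49, against 17.3% of all genes and a median of 0.09). Against wild type 45 were lower and 2 higher (median -1.10, against 29.7% of all genes and a median of 0.04). Without wild type replicate 2 and premalignant replicate 1, the lower counts were 34, 25 and 42, and with spike centring they were 4, 20 and 27. In a fit over all 3 groups 18, rather than 30, were lower in premalignant than in wild type cells.

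All 3 coreceptor genes tested were lower in premalignant than in wild type cells, and 2 of the 3 were lower again in lymphomas. Cr2 (CD21), a complement receptor, fell 4.52-fold from wild type to premalignant cells (adjusted p = 9.1e-04) and at least 13.2-fold from premalignant cells to lymphomas (adjusted p = 6.9e-14), where its mean was below the detection level. Ptprc (CD45), the phosphatase that keeps Src family kinases active and whose B220 form was an antigen of the beads, fell 3.61-fold from premalignant cells to lymphomas (adjusted p = 1.1e-06) and 6.32-fold from wild type. Cd81, the remaining gene, differed by -0.12 (adjusted p = 0.610) between lymphomas and premalignant cells.

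Among 10 inhibitory receptors and phosphatases tested, 5 were lower in premalignant than in wild type cells, 4 lower in lymphomas than in premalignant cells and 8 lower in lymphomas than in wild type. Ptpn6, the phosphatase recruited by Cd22 and Cd72, fell 6.20-fold from wild type to lymphomas (adjusted p = 2.4e-05). Pag1, the membrane anchor of the Src inhibitor Csk, fell 2.87-fold from wild type to premalignant cells (adjusted p = 4.6e-04), and Ptpn22, a phosphatase acting on Src and Syk family kinases, fell 3.53-fold from premalignant cells to lymphomas (adjusted p = 0.002). Both of the other Src and Tec family kinases tested, Fyn and Tec, were lower in premalignant than in wild type cells, Tec by 2.78-fold (adjusted p = 2.3e-04).

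Of 8 adaptors tested, 4, 5 and 7 were lower in the same 3 comparisons. Lat2 (NTAL), a membrane scaffold, fell at least 5.83-fold and Dapp1 (Bam32) at least 3.23-fold from premalignant cells to lymphomas, and Themis2 fell 5.92-fold from wild type to lymphomas (adjusted p = 7.8e-07, 2.6e-09 and 7.1e-08). Sh3bp2, which binds Syk and Vav, fell 2.23-fold from wild type to premalignant cells (adjusted p = 0.004).

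Further downstream the counts of genes lower in premalignant than in wild type cells were 6 of 9 for phospholipase C and calcium, 4 of 5 for protein kinase C to NF-kB, 2 of 7 for PI3 kinase and Akt and 1 of 4 for Ras and ERK. Nfatc1, a calcium-regulated transcription factor, fell 2.84-fold there (adjusted p = 0.003), while Ppp3cb, a calcineurin catalytic subunit, rose 1.58-fold (adjusted p = 0.007). In lymphomas against premalignant cells the same 4 groups had 2 of 9, 3 of 5, 2 of 7 and 2 of 4 genes lower. Akt1 was the gene that rose there, 1.93-fold (adjusted p = 6.8e-05), and it was 2.51-fold above wild type in lymphomas (adjusted p = 2.8e-06). In lymphomas against wild type 8 of 9, 5 of 5, 3 of 7 and 3 of 4 were lower. Groups of this size are read against the 14.1%, 17.3% and 29.7% of all genes that were lower in the 3 comparisons, and counts such as 1 of 4 or 2 of 7 lie near those shares. In lymphomas against wild type, Ppp3cb was 1.56-fold higher (adjusted p = 0.030).

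The lists of markers of other cells and of mature B cells did not move alike between the groups. Of the natural killer cell markers, 2 were tested, and 2 were lower in lymphomas than in premalignant cells. The T cell markers were below the detection level in every group mean (0 of 9), which does not show single arrays. Another Cd4 probe set, the one tested, had a mean of 3.64 ± 1.72 (SD, n = 13) in lymphomas. In premalignant arrays it was 2.13 ± 0.124 (SD, n = 5), a difference that did not pass (limma, adjusted p = 0.095). The mean over the monocyte and macrophage markers ranged from 5.64 to 6.85 in wild type, from 4.76 to 6.76 in premalignant and from 5.48 to 7.03 in lymphoma arrays, and 8 of its 10 genes were above the detection level in each group. Of these, 2 were higher and 2 lower in lymphomas than in premalignant cells. Stromal and endothelial markers had means from 3.72 to 3.90, from 3.41 to 3.69 and from 4.74 to 6.84 in the 3 groups, with 5 of 7 above the detection level in lymphomas, 3 higher and 1 lower than in premalignant cells. Mature B cell markers, of which Cr2 is also a coreceptor gene above, had means from 9.66 to 9.98, from 7.91 to 8.73 and from 3.09 to 5.00, and all 7 measured were lower in lymphomas than in premalignant cells, as were 6 of them in premalignant than in wild type cells. The part of these differences in the results for the receptor genes was not tested.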

How the data were processed

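RNA of B lineage cells was hybridised to Affymetrix MOE430A arrays, 1 array for each of 22 samples. The authors deposited a linear intensity for each probe set, made with GCRMA per the submitters' processing notes (version not given in the sources used here), and log2 of these values was taken here. Probe sets were named through the platform's probe table: of 22690, 20380 had 1 symbol, 691 several, 1555 none and 64 were controls. Probe sets with 1 symbol and a log2 above 4 on at least 4 arrays were kept, and the one with the highest mean stood for a gene. A separate fit was made for the 2 groups of each comparison, in limma 3.58.1 and R 4.3.3 (lmFit and eBayes, two-sided, Benjamini-Hochberg over 6437 genes, called under 0.05). Where a group mean was below 4, a fold was computed against 4 and is a lower bound. Ratios and correlations used exact permutation tests and 100000 resamples, respectively, in scipy 1.17.1. The fit was tested on simulated data. Members and gene lists were chosen with earlier results of these data known. The genes named are all members, up to 5 called pathway genes in each direction of each comparison, the 3 genes most like each member, Myc and markers; Cd81 and Fyn were named after their values were seen, to complete groups of 3 and 2. Planned ratios and pairs with Lyn were not run, and 1 marker and 1 group of pathway genes are not reported here. Alternatives were other scalings, filters, probe set rules, spread models and sets of arrays. The number of arrays limits the precision.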

Additional observations from a re-analysis of the deposited data

Results flagged for a closer look

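Of 22 groups examined, where chance sets 1 array apart in about 1 in 20, premalignant replicate 1 stood apart in 2 that share a value. Its Cd79a level of 13.17 was the highest of the 5 premalignant arrays, and its gap to the next, divided by the range, was 0.798, above the critical value of 0.710. Its log2 ratio of Cd79b to Cd79a, -0.91, was the lowest of the 5, with a gap of 0.904 of the range. This ratio contains the same Cd79a value, so both are 1 observation. The same array correlated least with its group over all genes, at 0.938.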

How the results depend on the processing

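Of 680 alternative values for single members, 652 kept their direction and their side of the threshold, 17 lost a call and 11 gained one, and 0 changed direction. No setting among them read Syk by 1425797_a_at alone, whose change between premalignant and wild type cells was 0.47, opposite in sign. Arrays centred on the spike controls gave 560 genes called and 0 members lower between premalignant and wild type cells, and 1771 genes called between lymphomas and premalignant cells. Without the filter 4929 and 7921 genes were called in the comparisons of lymphomas with premalignant and wild type cells. A fit over all 3 groups left 1 member lower in premalignant cells. Leaving out 1 array at a time gave 4 to 8 members lower in premalignant than in wild type cells (8 without premalignant replicate 1), 5 to 7 lower in lymphomas than in premalignant cells and 8 lower than in wild type. Leaving out lymphomas was chosen after seeing the data. Correlations of same-numbered arrays ranged from -0.113 to 0.21 over the 3 comparisons. For premalignant against wild type replicates 1 to 4 they were 0.105, -0.064, 0.192 and 0.21. Whether arrays with the same number came from paired mice was not tested. The replicate block gave 1418, 1677 and 2905 genes called and 4, 7 and 8 members lower in the 3 comparisons. Under it Blnk lost its call in premalignant cells (adjusted p = 0.106) and Cd72 gained one in lymphomas against premalignant cells (0.024). Without lymphomas 1 and 5, chosen after seeing the data, 0 pairs of members other than those of Blk had a called correlation, against 1 with them. The Cd22 and Blk correlation turned to -0.078 without the 2 arrays farthest from the median. The Cd72 to Cd22 ratio, near 0 in all comparisons, changed sign with the mean over probe sets (-0.040 in premalignant against wild type and 0.484 in lymphoma against premalignant), without wild type replicate 2 (-0.121 against premalignant and -0.126 for lymphoma against wild type), and without premalignant replicates 1 (-0.009 and 0.019), 3 (-0.021 and 0.031) and 5 (-0.001 and 0.010). Between premalignant and wild type cells, the Cd79b to Cd79a ratio became 0.101 without premalignant replicate 1 and the Btk to Syk ratio 0.025 without premalignant replicate 2. With 1 array left out at a time, the Cd79b to Cd79a, Cd72 to Cd22 and Btk to Syk ratios ranged from -0.118 to 0.101, from -0.121 to 0.092 and from -0.173 to 0.025 between premalignant and wild type cells, and the Cd72 to Cd22 ratio from -0.074 to 0.031 between lymphomas and premalignant cells and from -0.126 to 0.087 between lymphomas and wild type. The causes were not tested. Blk in lymphomas 1 and 5 lay below the detection level, so the size of its fall there is not known.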
